A study of Ovis aries with 36 samples.

Results

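The genes described here are 96 sheep genes whose transcripts were higher in the infraspinatus muscle at tendon repair than before tendon release, and which stood close to the muscle of the other side at the end of the experiment. They were chosen by measured values on the log2(value + 1) scale. A gene was taken when the mean over 9 animals of TR (at repair) minus PRE (before release) was at least 0.7, and the mean of END (operated side at the end) minus END-CC (other side at the end) was below 0.3. Only genes with a value above 1 in all 36 libraries and a median of 10 to 10000 were eligible, which held for 12404 of 25197 genes. Of these, 678 met the release criterion. The 96 genes are the ones that also met the criterion for the sides, and the other 582 stood 0.3 or more above the other side.

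The animals were female Swiss Alpine sheep, 2 years old at the start, and the design gives 6 animals to each of 3 arms, of which 3 per arm are analysed here. In all arms the infraspinatus tendon was released and reattached after 16 weeks. N22W animals received 150 mg of nandrolone decanoate, an anabolic androgenic steroid, every week from release on, so that they had 16 weeks of drug at TR and 22 weeks at END. N6W animals received the same weekly dose only from repair on, so that they had none at TR and 6 weeks of drug at END. CONTROL animals received none. Each animal gave 4 biopsies, namely PRE, TR at week 16, END at week 22 and END-CC, the contralateral infraspinatus at week 22. The END-CC muscle was not operated, but it belongs to an animal that was 22 weeks older than at PRE, and in N22W and N6W it had been exposed to the drug as well.

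The infraspinatus is a rotator cuff muscle that rotates the shoulder outwards. Once its tendon is detached, a muscle of this kind is unloaded, shortens, loses fibre mass and gains fat and connective tissue, and reattachment restores loading without quickly restoring the tissue. Androgens act on muscle through a nuclear receptor and raise protein synthesis in fibres. A contralateral muscle serves as a reference for the operated one, but it carries the load that the operated limb is spared. In a bulk biopsy a transcript with a lower value can reflect fewer cells of a type or less RNA per cell, which cannot be told apart.

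The libraries held 11879715 to 43066049 reads assigned to genes, and 15433 to 18571 genes had a value above 0. The deposited values are reads divided by 1 scale factor per library and are called normalized reads below. They are not corrected for transcript length, so levels are compared between samples and not between genes. The PRE and TR libraries of N22W and CONTROL, 12 in all, differed in level from the other 24, and the labels give no reason. The scale factors had a geometric mean of 1 in each set, and whether the sets were scaled apart was not tested. For 591 genes all 12 stood more than 8-fold above all 24, and none of the 96 genes is among them. Changes from PRE or TR to the end are therefore read within N6W animals only, while TR minus PRE and END minus END-CC never cross the sets. No symbol was found for any of the 25197 identifiers, so genes are called by identifier, without function. Marker genes of muscle fibres, fibroblasts, fat, vessels and immune cells could not be read, and their part in the results was not tested.

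**Figure D1:**
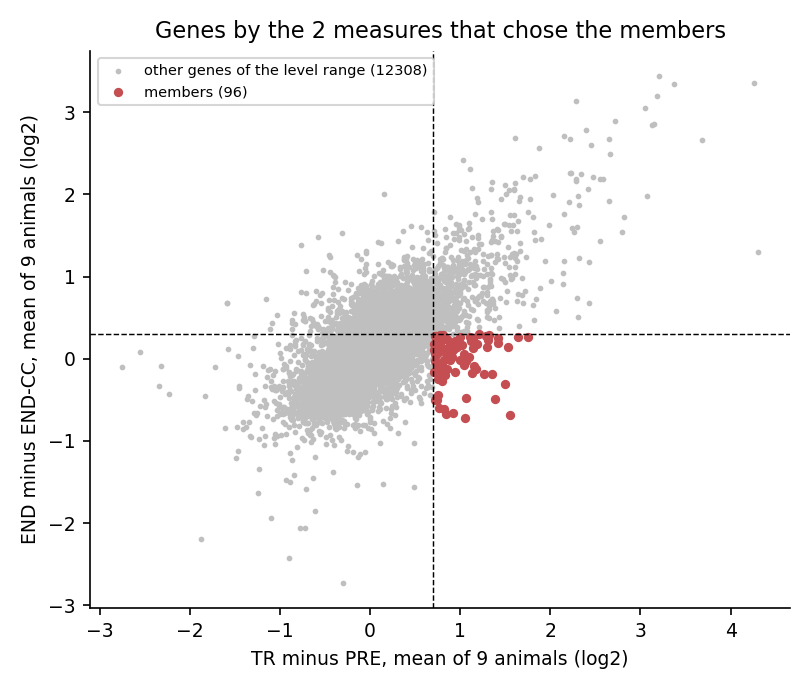
Each point is a gene, with its mean TR minus PRE over 9 animals on the horizontal axis and its mean END minus END-CC on the vertical axis, both in log2 units, and the dashed lines mark 0.7 and 0.3. The 96 members lie in the sparse corner to the right and below, many of them close to a line, while most genes with a higher value at TR also stood above the other side at the end.

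The corner that holds the 96 genes has no gap at its edges. The members just inside the release threshold were ENSOARG00000000772 and ENSOARG00000008834, both at 0.705, and ENSOARG00000002055 at 0.714. The genes just outside it were ENSOARG00000025096 and ENSOARG00000015792, both at 0.691, and ENSOARG00000001777 at 0.682. At the threshold for the sides, the members just inside were ENSOARG00000010363 at 0.299, ENSOARG00000003919 at 0.291 and ENSOARG00000006262 at 0.287, and ENSOARG00000016492 at 0.303, ENSOARG00000007374 at 0.304 and ENSOARG00000018784 at 0.305 were just outside. In all, 53 of the 96 members lay within 0.1 of a threshold. Membership of those genes is decided by differences well below the spread between animals.

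The 96 genes were moderate in level, with a median of 55.7 normalized reads (quartiles 19.9 and 256), against 165 for all genes of the level range. Their mean TR minus PRE had a median of 0.86 and reached 1.75, and their mean END minus END-CC had a median of 0.10 and ran between -0.72 and 0.30. These are the values that chose them. The SD of TR minus PRE over the 9 animals had a median of 0.82 for the members and 0.33 for all genes of the level range, which is a description only, since the rule took genes by the mean of that difference and the members are lower in level. TR stood above PRE in all 9 animals for 31 members, in 8 animals for 31, in 7 for 28, in 6 for 5 and in 5 for 1 member. END stood above END-CC in 4 to 6 of the 9 animals for most members, in 0 animals for 1 member and in no more than 7 for any.

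The median TR minus PRE of the members was 1.50, 0.63 and 0.78 in N22W animals 2913, 2914 and 2915. It was 0.87, 0.63 and 1.02 in N6W animals 2907, 2908 and 2909. In CONTROL animals 2901, 2902 and 2903 it was 1.02, 0.67 and 0.67. Values of the 3 animals of an arm are given in this order throughout. N22W animal 2913 therefore had the highest median, and the other 8 animals lay between 0.63 and 1.02. The same medians for END minus END-CC were 0.00, -0.03 and 0.17 in N22W animals, 0.04, -0.39 and 0.25 in N6W animals, and 0.23, -0.14 and 0.04 in CONTROL animals. They lay on both sides of 0 in every arm.

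**Figure D2:**
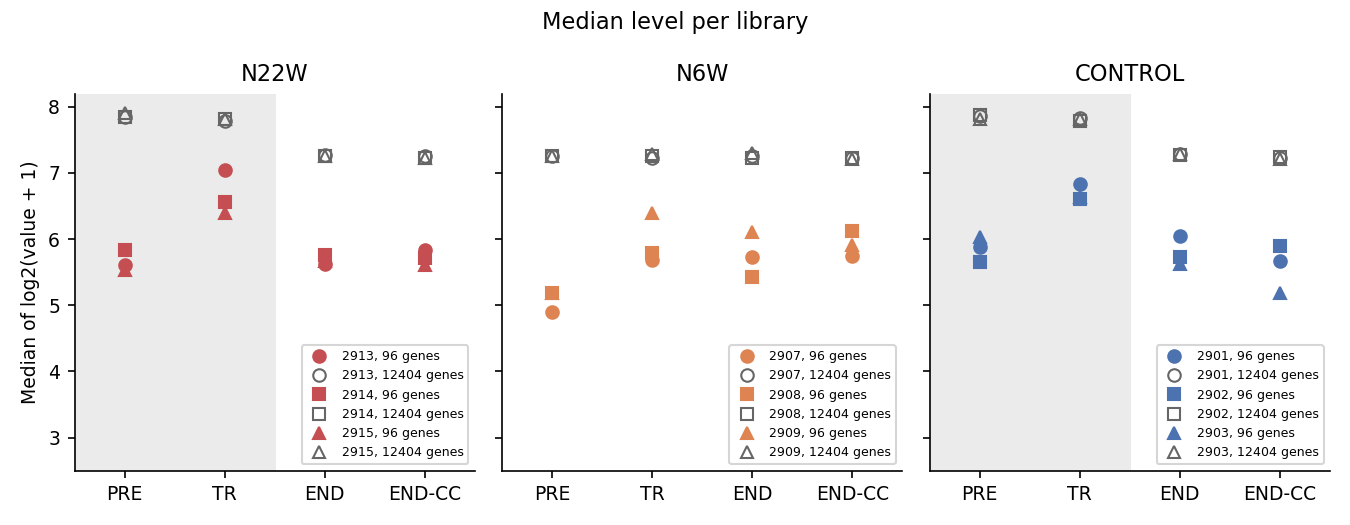
Filled symbols give the median log2(value + 1) of the 96 members in each library, by arm and time point. Open grey symbols give that of the 12404 genes of the level range, with 1 symbol shape per animal. Grey shading marks the PRE and TR libraries of N22W and CONTROL, which differed in level from the others. The members stood higher at TR than at PRE in each of the 9 animals. In N6W, with no shaded library, their median was 4.90 to 5.19 at PRE and 5.69 to 6.40 at TR. It was 5.42 to 6.12 at END and END-CC.

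The 10 members with the largest mean TR minus PRE were led by ENSOARG00000008604, at 1.75 ± 1.41 (SD, n = 9 animals). Its TR values were 107, 13.2 and 116 normalized reads in N22W animals, against 15.8, 5.87 and 6.78 at PRE. In N6W animals they were 3.58, 13.2 and 31.7 at TR and 6.29, 1.30 and 9.69 at PRE, and in CONTROL animals 61.3, 24.4 and 35.3 at TR and 17.5, 21.1 and 4.91 at PRE. The PRE value of 1.30 in N6W animal 2908 is 1 read, and TR minus PRE in that animal was 2.62. N6W animal 2907 was lower at TR, and the remaining 8 animals were higher. At the end its END minus END-CC changed sign from animal to animal, with a mean of 0.27 ± 1.27.

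ENSOARG00000000175 was higher at TR in all 9 animals, with a mean difference of 1.64 ± 0.92. It had 86.1, 101 and 83.0 normalized reads at TR and 42.1, 44.6 and 32.8 at PRE in N22W animals. N6W animals had 32.2, 95.4 and 84.9 at TR and 17.1, 31.3 and 8.08 at PRE, and CONTROL animals 172, 206 and 103 at TR and 44.8, 25.1 and 66.3 at PRE. In each arm the lowest TR value stood above the highest PRE value, in N6W animals narrowly, with 32.2 against 31.3. Members were chosen on TR minus PRE, so a gap of this kind is a description only. In N6W animals END was 27.8, 42.4 and 61.0, below TR in each of the 3, and END-CC was 42.7, 57.0 and 23.4.

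ENSOARG00000015979 and ENSOARG00000007712 were also higher at TR in all 9 animals, by 1.53 ± 0.76 and 1.39 ± 0.70. ENSOARG00000015979 had 97.9, 18.3 and 99.7 normalized reads at TR and 13.5, 10.4 and 22.6 at PRE in N6W animals, with 49.7, 19.2 and 174 at END and 45.3, 52.0 and 59.8 at END-CC. ENSOARG00000007712 had 715, 771 and 902 at TR and 196, 573 and 166 at PRE in N22W animals. The smallest of these 6 differences was found for ENSOARG00000007712 in N22W animal 2914, whose PRE value was already high. ENSOARG00000010714, ENSOARG00000013548 and ENSOARG00000006262 complete the genes of this group that were higher in all 9 animals. Their means were 1.42 ± 1.23, 1.35 ± 1.23 and 1.33 ± 0.62. ENSOARG00000010714 ran from 0.25 in N22W animal 2914 to 4.11 in N6W animal 2907. ENSOARG00000013548 ran from 0.14 in N6W animal 2909 to 3.37 in N6W animal 2907. At PRE in CONTROL animal 2903 ENSOARG00000013548 stood at 1.23, which is 1 read, and its TR minus PRE there was 2.80. ENSOARG00000006262 was low. In CONTROL animals it was even, with 24.02, 26.8 and 20.8 normalized reads at TR and 8.73, 11.1 and 6.14 at PRE, and these groups did not overlap. In N6W animals it was less even, with 9.55, 15.4 and 24.55 at TR and 7.19, 3.91 and 3.23 at PRE. TR minus PRE was 0.36, 1.74 and 2.59 there.

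The remaining 3 of the 10 were lower at TR in 1 animal or more, as was ENSOARG00000008604. ENSOARG00000007452 had 9.03, 12.1 and 12.1 normalized reads at TR and 13.7, 27.0 and 7.91 at PRE in N22W animals. In N6W animals it had 88.3, 300.0 and 13.3 at TR and 5.39, 20.9 and 9.69 at PRE, and in CONTROL animals 9.11, 547 and 36.2 at TR and 10.9, 27.1 and 3.68 at PRE. TR and PRE overlapped in every arm, and N6W animal 2908 and CONTROL animal 2902 carried the highest TR values. ENSOARG00000007558 was lower at TR in N6W animals 2907 and 2908, whereas in CONTROL animals it had 81.2, 79.5 and 246 at TR and 8.73, 15.1 and 14.7 at PRE, which did not overlap. ENSOARG00000015118 had 37.0, 82.2 and 50.1 at TR and 3.60, 11.7 and 12.9 at PRE in N6W animals, and was lower at TR in N22W animal 2913 only.

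Among the 96 genes the widest spread of TR minus PRE was that of ENSOARG00000000747, at 1.07 ± 2.34. It had 296, 99.2 and 79.0 normalized reads at TR and 22.1, 30.6 and 22.6 at PRE in N22W animals. N6W animals had 218, 27.1 and 93.6 at TR and 4.50, 44.4 and 105 at PRE, and CONTROL animals 139, 152 and 43.5 at TR and 259, 79.3 and 180.4 at PRE. The largest change was that of N6W animal 2907, at 5.32, while N6W animals 2908 and 2909 and CONTROL animals 2901 and 2903 were lower at TR. ENSOARG00000007452 and ENSOARG00000007558 followed with SDs of 2.14 and 1.82. The smallest spreads were those of ENSOARG00000008834 (0.71 ± 0.29), ENSOARG00000013069 (0.86 ± 0.33) and ENSOARG00000007493 (0.82 ± 0.34), each higher at TR in 9 of 9 animals.

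The 5 most abundant members had mean changes of 0.72 to 0.84, near the threshold. ENSOARG00000001872, with a median of 2506 normalized reads, had 5308, 4171 and 3941 at TR and 1697, 2082 and 1858 at PRE in N22W animals. In N6W animals, without drug at these times, it had 2854, 2622 and 2240.0 at TR and 1069, 1696 and 1633 at PRE, and in CONTROL animals 4543, 4097 and 2951 at TR and 4809, 2576 and 3797 at PRE. TR stood wholly above PRE in N22W and in N6W, and the CONTROL groups overlapped. ENSOARG00000019480 likewise differed by 0.85 in N22W, 1.32 in N6W and 0.04 in CONTROL animals, and ENSOARG00000017329 by 1.43, 0.77 and 0.05 in the same order. ENSOARG00000011756 differed by 0.99 in N22W, 1.19 in N6W and 0.35 in CONTROL animals, and END-CC was above END in 8 of its 9 animals. ENSOARG00000008800 stood at 7895 to 30510 normalized reads in the 12 PRE and TR libraries of N22W and CONTROL and at 432 to 3098 in the other 24. In N22W and CONTROL animals its END minus TR was -5.27 to -2.96, against -0.50 to -0.42 for the median gene of the level range. Within N6W animals it had 489, 617 and 945 at PRE, 3098, 1492 and 875 at TR and 1726, 669 and 849 at END, with 1887, 662 and 2046 at END-CC.

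Because the 96 genes were picked on the mean of all 9 animals, the change with release was tested on lists chosen by the same rule in 2 arms and read in the animals of the arm left out. Counts are genes past a false discovery rate of 0.05 in limma with animal as a block and Benjamini-Hochberg adjustment over 16417 genes. These lists overlap the 96 members but are not identical to them. Read in N22W animals, 27 of the 86 genes chosen in N6W and CONTROL rose from PRE to TR and none fell, with a median change of 0.74, and 55 of the 86 are members. Over all genes tested, 5.26% were called higher there and 16.8% in either direction. Read in N6W animals, 9 of 94 genes rose and none fell, with a median change of 0.60, where 3.76% of all genes were called higher and 6.98% in either direction. Read in CONTROL animals, 15 of 161 genes rose and 1 fell, with a median of 0.44, where 4.21% were called higher and 11.2% in either direction. The share of the CONTROL list called in either direction, 9.94%, was thus not above that of all genes. At an unadjusted limma p under 0.05 stood 50% of the list against 30.5% of all genes in N22W. The shares were 33% against 24.1% in N6W and 30.4% against 27.4% in CONTROL.

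The counts rested on few animals and on the fit. Fitted to only the libraries compared, the counts were 12 in N22W, 0 in N6W and 34 in CONTROL animals, and without the animal block they were 10, 3 and 4. The N22W count was 1 without animal 2913 and 7 without 2915. The N6W count was 1 without animal 2909 and 5 without 2907, and the 16 calls in CONTROL became 5, 3 and 3 without 2901, 2902 and 2903.

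The genes of smallest adjusted p in these 3 readings were all members, which the rule made likely. List genes had already met the release criterion in the other arms. A large rise in the arm left out then keeps the mean over all animals above the release threshold. Their membership is therefore no separate evidence for the members as a set. In N22W animals ENSOARG00000010281 rose by 1.02 (SE 0.21, limma adjusted p = 0.00302), with 2483, 2189 and 1995 normalized reads at TR and 715, 1621 and 1113 at PRE. ENSOARG00000007561 rose by 2.09 (SE 0.44, limma adjusted p = 0.00338), with 57.2, 33.0 and 28.1 at TR and 13.7, 3.52 and 10.2 at PRE. ENSOARG00000010363 rose by 1.79 (SE 0.38, limma adjusted p = 0.00382), with 132, 43.0 and 38.8 at TR and 23.2, 10.6 and 19.2 at PRE. In each of the 3 genes the lowest N22W value at TR stood above the highest at PRE. Without animal 2913 the adjusted p of ENSOARG00000010281 was 0.134 and that of ENSOARG00000010363 0.0941, while ENSOARG00000007561 stayed at or below 0.0475 whichever animal was left out.

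In N6W animals ENSOARG00000005443 rose by 1.72 (SE 0.35, limma adjusted p = 0.00581), with 706, 463 and 395 normalized reads at TR and 126, 198 and 144 at PRE. ENSOARG00000007712 rose by 1.52 (SE 0.35, limma adjusted p = 0.0111), with 678, 461 and 674 at TR and 146, 219 and 275 at PRE. ENSOARG00000010281 rose here as well, by 0.92 (SE 0.21, limma adjusted p = 0.0113), with 1090.0, 909.5 and 1780.0 at TR and 551, 607 and 770.5 at PRE. All 3 genes had TR above PRE in 3 of 3 animals and no overlap between the groups. Leaving out 2907 ended the call of ENSOARG00000005443 (highest adjusted p 0.0573), leaving out 2907 or 2909 that of ENSOARG00000007712 (0.0783), and leaving out 2909 that of ENSOARG00000010281 (0.126).

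In CONTROL animals ENSOARG00000010273 rose by 1.41 (SE 0.29, limma adjusted p = 0.00507), with 39.8, 41.7 and 50.7 normalized reads at TR and 14.2, 19.1 and 14.7 at PRE. ENSOARG00000013069 rose by 0.94 (SE 0.21, limma adjusted p = 0.00859), with 83.7, 67.7 and 42.6 at TR and 45.9, 44.2 and 15.9 at PRE. ENSOARG00000007775 rose by 1.40 (SE 0.32, limma adjusted p = 0.00917), with 718, 1303 and 496 at TR and 283, 363 and 247 at PRE. The groups were apart for ENSOARG00000010273 and ENSOARG00000007775 and overlapped for ENSOARG00000013069, which was higher at TR in each of the 3 animals. The calls of ENSOARG00000010273 and ENSOARG00000013069 ended without animal 2903 (adjusted p 0.0555 and 0.105), and that of ENSOARG00000007775 without 2901 or 2902 (highest 0.156).

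**Figure D3:**
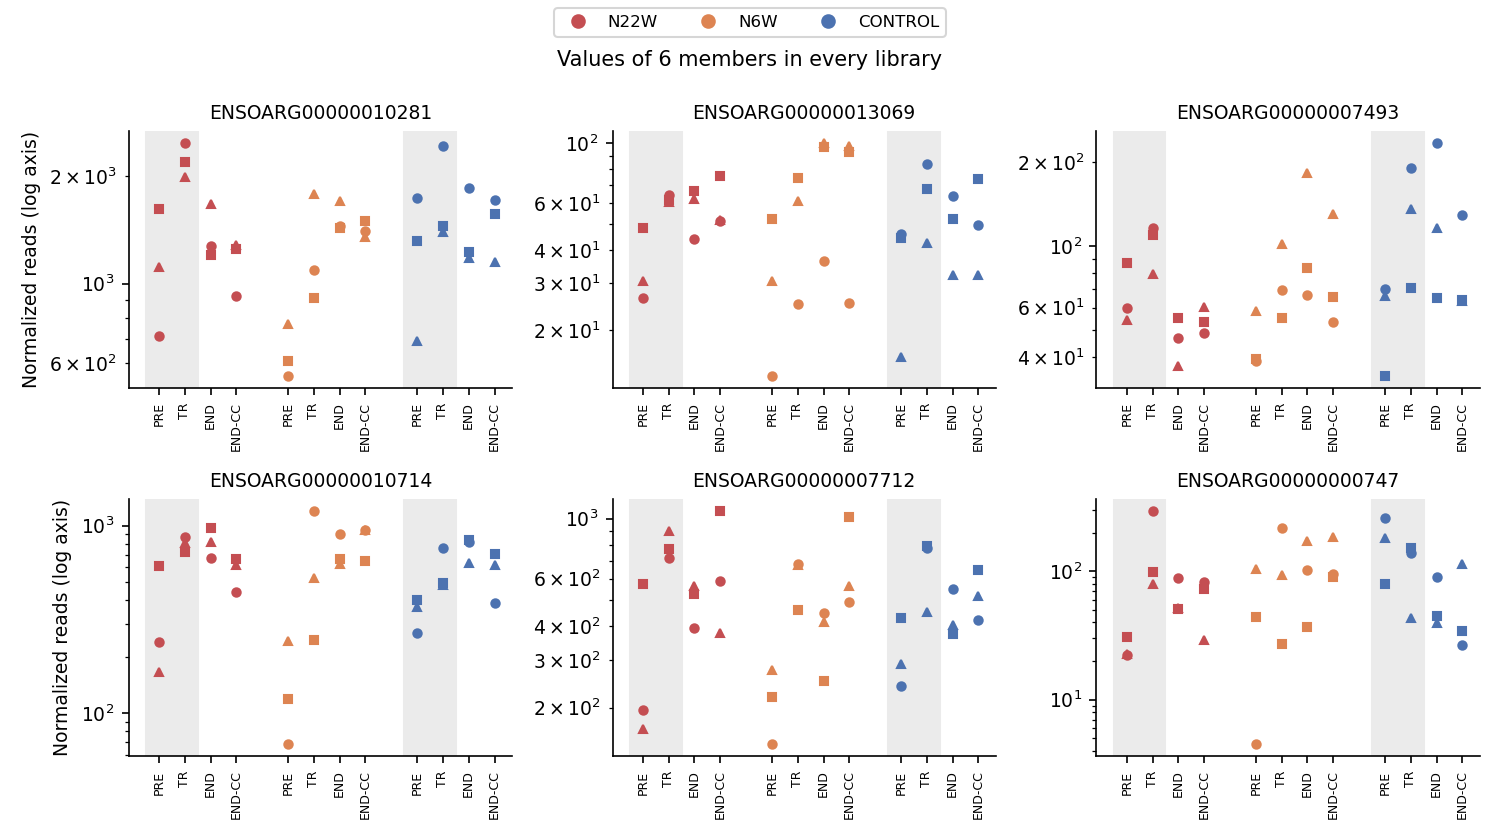
Normalized reads on a log axis in every library are shown for 6 members, by arm and time point. Circle, square and triangle are the animals of an arm in number order, and grey shading marks the PRE and TR libraries of N22W and CONTROL. In N6W animals, whose libraries are not shaded, ENSOARG00000010281 lies at 551 to 770.5 at PRE and between 909.5 and 1780 in all later biopsies. ENSOARG00000000747 shows no such order.

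The criterion for the sides was read in the same way. In N22W animals 0 of the 86 genes chosen in the other arms differed between END and END-CC by limma, with a median difference of 0.16. There, 1.6% of all genes were called in either direction. At an unadjusted p under 0.05 there were 8, or 9.30% of the list against 19.7% of all genes tested. EdgeR and DESeq2 on the recovered reads called 0, and limma on only the libraries compared called 5. In N6W animals 2 of 94 genes were higher at END, with a median of 0.20, against 4.12% of all genes in either direction and 2.55% higher. In CONTROL animals 10 of 161 were higher at END and none lower, with a median of 0.21, against 19.4% in either direction and 9.53% higher. In all 3 arms the list medians of the arm left out were above the median of the genes of the level range, which lay between -0.01 and 0.01. The N6W count was 0 without animal 2909 and 1 without 2907, 2913, 2914, 2902 or 2903, and the CONTROL count was 1, 4 and 0 without 2901, 2902 and 2903. With only the libraries compared these counts were 0 in N6W and 25 in CONTROL animals, and without the animal block 1 and 3.

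None of the genes named by these side readings belongs to the 96, which the rule made likely. A large difference in the arm left out also raises the mean over 9 animals, which had to stay below 0.3. The genes named are ENSOARG00000016629 and ENSOARG00000005630 in N6W, higher at END by 1.96 (SE 0.38, limma adjusted p = 0.0109) and 1.13 (SE 0.30, limma adjusted p = 0.0402). In CONTROL they are ENSOARG00000008141, ENSOARG00000009764 and ENSOARG00000019635, higher at END by 1.96, 1.72 and 1.32 (limma adjusted p = 0.00769, 0.0226 and 0.0238). ENSOARG00000016629 had 16.0, 28.7 and 33.8 normalized reads at END and 2.67, 7.43 and 8.76 at END-CC in N6W animals, which did not overlap. All 5 calls end when some animal is left out, for ENSOARG00000016629 only without 2909 (adjusted p 0.248).

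A gene can be level with the other side when the operated muscle is back at its start or when the other side stands as high. N6W animals allow both to be read without crossing the sets of libraries, with genes chosen in N22W and CONTROL animals only. Between TR and END 0 of the 94 genes changed by limma, and the median change was 0.07, with 52 of 94 genes above 0. The share called over all genes was 0.0853%. At an unadjusted p under 0.05 there were 11, or 11.7% of the list against 9.92% of all genes tested, and edgeR and DESeq2 called 0. From PRE to END 10 of 94 genes rose and none fell, with a median change of 0.73 and 83 of 94 above 0, where 3.16% of all genes were called higher and 6.19% in either direction. The END-CC muscle was also above PRE. There, 14 of 94 genes were higher and none lower, with a median difference of 0.42 and 62 of 94 above 0, where 4.39% of all genes were called higher and 8.18% in either direction. These changes share the 3 PRE libraries of N6W.

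The genes that met the release criterion in N22W and CONTROL animals but stood 0.3 or more above the other side there numbered 687. In N6W animals the 94 genes had a median TR minus PRE of 0.60 and a median END minus PRE of 0.73, against 0.73 and 0.77 for the 687. For TR minus PRE 9.57% of the 94 and 23.6% of the 687 were called higher, and for END minus PRE 10.6% and 21.5%. The matching lists read in CONTROL animals had a median TR minus PRE of 0.44 against 0.97, with 9.32% against 40.1% called higher. Those read in N22W animals had 0.74 against 0.84, with 31.4% against 39.7%. At END-CC minus PRE in N6W animals the 94 genes had a median of 0.42, against -0.13 for the 687. Of the 687, 286 were above 0, 19 called higher and 11 called lower. The difference between the lists was not tested. By animal, in the order 2907, 2908 and 2909, the median END-CC minus PRE was 0.15, 0.38 and 0.40 for the 94 genes, against -0.31, -0.07 and 0.09 for the 687. For all genes of the level range it was -0.02, 0.00 and 0.00.

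The N6W counts depended on animals 2907 and 2909. Without 2907 the calls were 6 at END and 6 at END-CC, and without 2909 they were 3 and 7. The N6W PRE libraries held 19974806, 14434966 and 11879715 reads, and the last is the lowest of all 36. On the recovered reads, which take depth into account, edgeR called 9 genes at END and 12 at END-CC, and DESeq2 16 and 15. Limma on only the libraries compared called 0 and 0, and without the animal block 1 and 2. The time since PRE, the drug and the side differ together between PRE and END-CC and cannot be told apart.

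**Figure D4:**
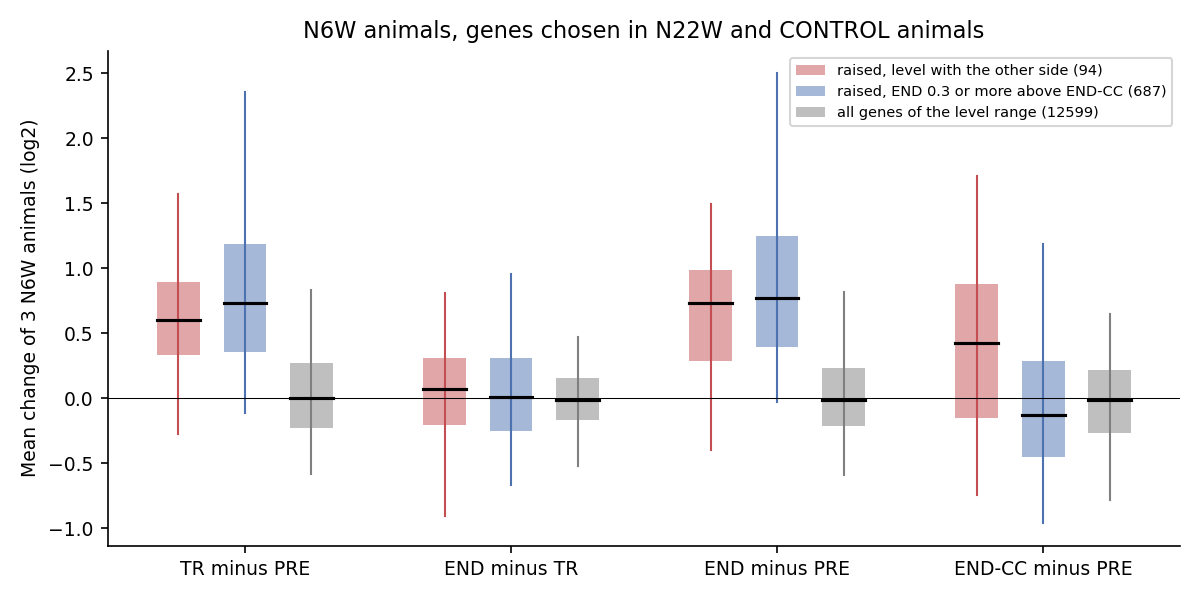
Boxes show the quartiles and the median, and lines the 5th to 95th percentile, of the mean log2 change over the 3 N6W animals, for the 94 genes chosen as level with the other side in N22W and CONTROL animals, the 687 chosen as raised with END 0.3 or more above END-CC, and all 12599 genes of the level range. Both lists have medians of 0.60 or more for TR minus PRE and END minus PRE and near 0 for END minus TR, and at END-CC minus PRE the medians are 0.42, -0.13 and -0.01 in the order named.

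Of the 94 genes, those with the smallest adjusted p at END in N6W animals were ENSOARG00000013069, ENSOARG00000010281 and ENSOARG00000007493, all of them members. ENSOARG00000013069 was higher than at PRE by 1.31 (SE 0.21, limma adjusted p = 0.00113), with 36.2, 97.2 and 101 normalized reads at END and 13.5, 52.2 and 30.7 at PRE. ENSOARG00000010281 was higher by 1.26 (SE 0.21, limma adjusted p = 0.00122), with 1453, 1430.0 and 1701 at END and 551, 607 and 770.5 at PRE. ENSOARG00000007493 was higher by 1.16 (SE 0.22, limma adjusted p = 0.0032), with 66.5, 83.5 and 182 at END and 38.7, 39.1 and 58.1 at PRE. Each was above PRE in 3 of 3 animals. The groups overlapped for ENSOARG00000013069, where animal 2907 was low throughout, and not for the other genes.

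On the other side, ENSOARG00000010281 was higher at END-CC than at PRE by 1.15 (SE 0.21, limma adjusted p = 0.00232), with 1407, 1494 and 1353 normalized reads at END-CC. ENSOARG00000013069 was higher by 1.11 (SE 0.21, limma adjusted p = 0.00336), with 25.3, 92.8 and 97.8. ENSOARG00000013948 was higher by 1.78 (SE 0.35, limma adjusted p = 0.00389), with 57.4, 94.1 and 71.5 at END-CC and 20.7, 28.7 and 14.5 at PRE. For ENSOARG00000010281 and ENSOARG00000013948 every END-CC value was above every PRE value. Leaving out 2907 ended the END-CC call of ENSOARG00000010281 (adjusted p 0.0524), leaving out 2909 that of ENSOARG00000013069 (0.0612) and the END call of ENSOARG00000007493 (0.0719). The call of ENSOARG00000013948 held without any animal, with 0.0424 as its highest adjusted p.

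Over the 96 members themselves, whose PRE, TR, END and END-CC values in N6W took part in the choice, the medians in N6W animals were -0.06 for END minus TR, 0.83 for END minus PRE and 0.91 for END-CC minus PRE. END-CC was above PRE for 86 of the 96 and END for 90. Among the 582 genes that stood above the other side, the median END-CC minus PRE in N6W was -0.06, with 274 above 0. The 582 were chosen with END above END-CC, which favours a low END-CC.

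The largest END-CC minus PRE among the members in N6W animals was that of ENSOARG00000010714, at 2.72. It had 68.3, 119 and 244 normalized reads at PRE, 1197, 246 and 525 at TR and 902, 664 and 623 at END, with 944, 648 and 947 at END-CC. Both sides at the end were above the highest PRE value in all 3 animals. ENSOARG00000013548 (2.60), ENSOARG00000016924 (2.36), ENSOARG00000012484 (2.33) and ENSOARG00000000742 (2.02) came next. ENSOARG00000013548 was low, with 70.7, 23.5 and 42.3 at END-CC and 3.60, 2.61 and 19.4 at PRE. ENSOARG00000016924 had 233, 370.2 and 389.6 at END-CC and 25.2, 111 and 84.0 at PRE, which did not overlap. ENSOARG00000012484 and ENSOARG00000000742 had END-CC above END in each of the 3 N6W animals. For ENSOARG00000000742 END was 442, 352 and 983 and END-CC 592, 789.8 and 2904.

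At the other end stood members with END-CC below PRE in N6W animals. The lowest END-CC minus PRE was that of ENSOARG00000008335, at -1.12, followed by ENSOARG00000008249 (-0.91), ENSOARG00000003919 (-0.50), ENSOARG00000020415 (-0.37) and ENSOARG00000016706 (-0.34). ENSOARG00000016706 had 55.7, 62.6 and 54.9 normalized reads at PRE, 51.3, 87.3 and 152 at TR and 41.2, 32.8 and 57.6 at END in N6W animals, with 38.7, 60.7 and 39.4 at END-CC. Its END value was below TR in each of the 3 animals, and the mean END minus TR was -1.03. ENSOARG00000003919 and ENSOARG00000020415 had END minus TR means of -1.05 and -0.96. ENSOARG00000008335 and ENSOARG00000008249, by contrast, were not higher at TR in this arm, with TR minus PRE of -0.31 and -0.02 in N6W animals and of 1.84 and 1.54 in CONTROL animals.

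The drug was compared between arms for the 96 members as differences the choice did not use, since it used means over arms. For TR minus PRE, N22W animals (on drug) were set against N6W and CONTROL animals (no drug until repair). None of the 96 members passed, the median difference was 0.05, and 12 had an unadjusted p under 0.05, or 12.5% of them against 8.51% of the genes of the level range. Over all genes 0.0548% were called. The smallest p among the members, looked up after the values were seen, was that of ENSOARG00000011794, with a difference of 1.38 (SE 0.40, limma adjusted p = 0.285). ENSOARG00000001872 followed with 0.79 (SE 0.24, limma adjusted p = 0.338).

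Treated animals (N22W and N6W together) were set against CONTROL animals at the end. For END minus END-CC 0 of 96 members passed, with a median difference of -0.03 and 5 at an unadjusted p under 0.05, or 5.21% against 4.31% of the genes of the level range, and 0% of all genes were called. On the END-CC side 0 of 96 passed, with a median of 0.00 and 13 at an unadjusted p under 0.05, or 13.5% against 8.22%, and 0% of all genes were called. At END 0 of 96 passed, with a median of -0.02 and 8 at an unadjusted p under 0.05, or 8.33% against 6.51%, and again 0% of all genes were called. In these comparisons and in that of release edgeR called 0 members, and DESeq2 0 except for 1 on the END-CC side.

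For PRE to END, N22W was set against CONTROL, whose libraries cross the sets in the same way. Of the 96 members 1 passed, ENSOARG00000007493, with a difference of -1.66 (SE 0.31, limma adjusted p = 0.0202), and 0.122% of all genes were called. At END it had 46.6, 55.1 and 37.2 normalized reads in N22W animals and 234, 65.1 and 116 in CONTROL animals. At PRE it had 60.0, 86.9 and 54.2 in N22W animals and 69.9, 34.1 and 66.3 in CONTROL animals. END minus PRE was -0.36, -0.65 and -0.53 in N22W animals and 1.73, 0.91 and 0.80 in CONTROL animals. The median gene of the level range shifted between PRE and END alike in both arms, by -0.58 to -0.49 in these 6 animals. Leaving out any of the 6 animals ended the call, with differences between -1.83 and -1.37 and adjusted p of at most 0.291. The gene was higher at TR than at PRE in 9 of 9 animals, by 0.60 in N22W, 0.70 in N6W and 1.16 in CONTROL animals.

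The members did not vary as a block. After removing the mean of each arm and time point and of each animal, the correlation between pairs of members over 36 libraries had a median of 0.09 and ran between -0.77 and 0.92. The points share animals and scale factors, so these correlations are a description. Grouping by average linkage at a correlation of 0.5 gave 4 sets of 6 or more genes, which hold 34 members and were formed after the values were seen. The largest has 14 genes led by ENSOARG00000009653 (median correlation 0.62) and includes ENSOARG00000010714, ENSOARG00000012484, ENSOARG00000016924, ENSOARG00000000742, ENSOARG00000000747, ENSOARG00000013948, ENSOARG00000001872, ENSOARG00000017329 and ENSOARG00000019480. Its mean TR minus PRE was 2.45, 0.57 and 1.52 in N22W animals 2913, 2914 and 2915, 2.69, 0.05 and 0.75 in N6W animals 2907, 2908 and 2909, and 0.93, 0.20 and -0.46 in CONTROL animals 2901, 2902 and 2903. In N6W its mean END-CC minus PRE was 2.16, 1.08 and 1.39, and 4 of the 5 members of highest END-CC minus PRE named above belong to it.

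The second set has 8 genes led by ENSOARG00000007558, with a mean TR minus PRE of 2.59, 0.88 and 0.49 in N22W animals, -0.02, -0.05 and 1.52 in N6W animals and 1.14, 0.87 and 1.39 in CONTROL animals. The third, 6 genes led by ENSOARG00000017752 and including ENSOARG00000010281, ENSOARG00000010363 and ENSOARG00000015979, was above 0 in all 9 animals, between 0.33 and 2.29. The fourth, 6 genes led by ENSOARG00000008800 and including ENSOARG00000005443, ENSOARG00000007452 and ENSOARG00000011756, reached 2.52 and 1.86 in N6W animals 2907 and 2908 and 1.97 in CONTROL animal 2902, and lay between 0.00 and 0.64 in the other 6. The highest means lay in N6W animal 2907 for the sets led by ENSOARG00000009653 and ENSOARG00000008800 and in N22W animal 2913 for those led by ENSOARG00000007558 and ENSOARG00000017752. For END minus END-CC the sets lay between -1.03 and 0.87 in single animals, and the fourth was below 0 in 8 of 9.

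**Figure D5:**
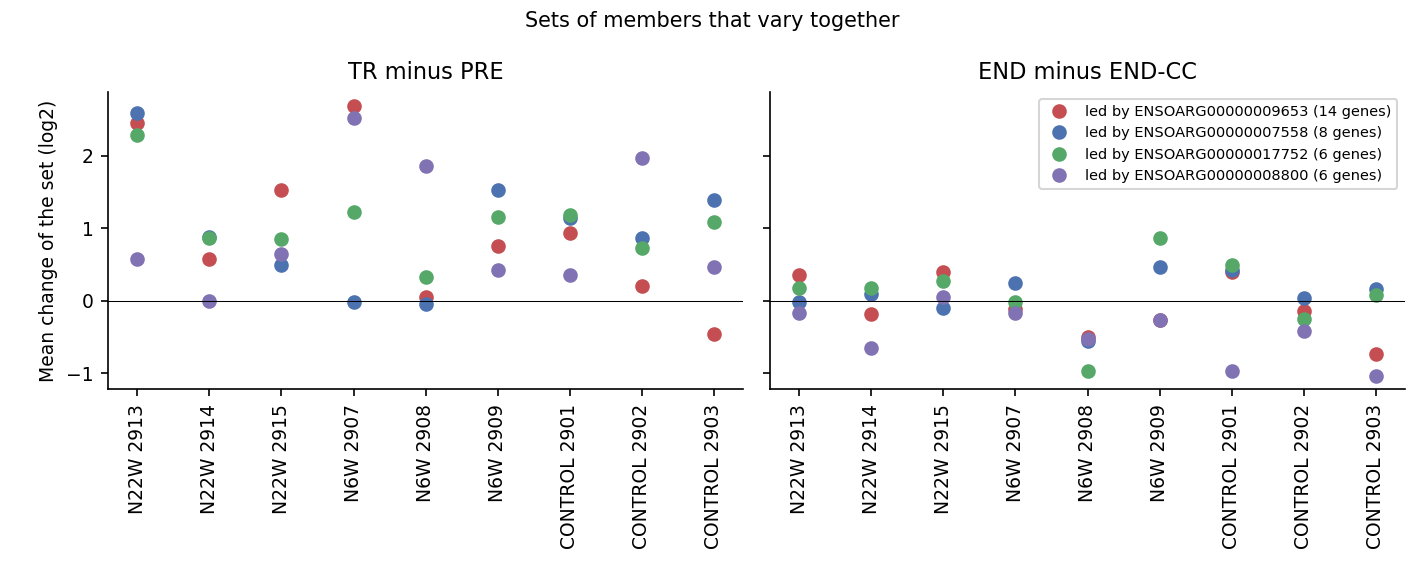
Each dot is the mean log2 change of a set of members in 1 animal, with TR minus PRE on the left and END minus END-CC on the right, and colours give the 4 sets by leading gene. For TR minus PRE, the fourth set (6 genes, led by ENSOARG00000008800) is the highest of the 4 in N6W animal 2908 and CONTROL animal 2902. The highest TR minus PRE of every set lies in N22W animal 2913 or N6W animal 2907.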

How the data were processed

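RNA from 36 infraspinatus biopsies of 9 sheep was sequenced as ribosomal-RNA-depleted stranded libraries, per the labels' protocols. STAR 2.3.0e, R 3.0.2 and Oar_v3.1 are named, with no role given here, per the submitters' processing notes. The deposited signal is a value per gene that the authors scaled by library. The steps between low values gave whole reads (within 0.1) for 100% of values in every library, and sums of these reads were 11879715 to 43066049 per library. Differences were tested with limma 3.58.1 (trend) in R 4.3.3 on log2(value + 1), for genes with a median of at least 0.5 (16417 genes), with animal as a fixed block and arm-by-time-point means fitted over all 36 libraries. END and END-CC libraries were compared between arms without a block. The Benjamini-Hochberg threshold was 0.05. Same-numbered libraries are biopsies of 1 animal, and their deviations from the group means had a mean correlation of 0.24 (50 of 54 pairs over 0.1). Between other animals of the arm at other time points it was -0.12. Deviations within a group sum to 0, so the -0.12 follows largely from the 0.24 and is no separate evidence. Replicates of a group are different animals, and none were copies, since chi-square per gene was at least 12.16. Alternatives were edgeR 4.0.16 and DESeq2 1.42.0 on the recovered reads, TMM scaling, a pseudocount of 0.5, no filter, no block, only the libraries compared, other thresholds of the rule, and each animal left out. Scripts were tested on simulated data.

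The members and lists were chosen with earlier results of these data known. Named members are those with the 10 largest TR minus PRE, the 5 highest medians and the 3 largest and 3 smallest spreads. The members with the 5 highest and 5 lowest END-CC minus PRE in N6W are named too. So are those with the 5 smallest adjusted p of the members passing in each comparison of arms. The 3 genes nearest each threshold are named on either side, and the outer ones are not members. For each reading of an arm left out, the 3 list genes of smallest adjusted p among those passing are named, whether members or not. The 25197 identifiers were looked up in a RefSeq gene table of 35057 entries and 0 matched, so no symbols or sequences are given.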

Additional observations from a re-analysis of the deposited data

Results flagged for a closer look

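ENSOARG00000007493 differed between arms in its change from PRE to END, by -1.66 in N22W against CONTROL animals (SE 0.31, limma adjusted p = 0.0202). The change was lower in all 3 N22W animals than in all 3 CONTROL animals.

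For 9 of the 96 members END minus END-CC had opposite signs in all animals of a pair of arms, over 12 pairs. How many of all genes did so was not counted, so this number is a description only. The 12 differences were then tested by limma in comparisons added after the values were seen. Those comparisons called 0 of 16417 genes each, and none of the 12 differences passed.

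For N22W minus CONTROL the differences were -1.25 for ENSOARG00000002055, -1.07 for ENSOARG00000006262 and 0.77 for ENSOARG00000018812 (limma adjusted p = 0.981 each). For N22W minus N6W they were -0.54 for ENSOARG00000002055, -0.61 for ENSOARG00000006262, 1.03 for ENSOARG00000002036, 1.32 for ENSOARG00000012484, 1.31 for ENSOARG00000012910 and 0.83 for ENSOARG00000017329 (limma adjusted p = 0.999 each). For N6W minus CONTROL they were -1.54 for ENSOARG00000002036, 1.21 for ENSOARG00000008335 and 1.03 for ENSOARG00000010587 (limma adjusted p = 1 each). ENSOARG00000002055 and ENSOARG00000006262 were below 0 in the N22W animals and above 0 in all others.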

How the results depend on the processing

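No change of a gene named for its adjusted p reversed in sign under any alternative run. Counts have no sign, so this does not cover them. Counts below are genes called in the lists read in the arm left out, unless members are named. DESeq2 called 28 genes for release in CONTROL, 16 at END against PRE in N6W and 1 member at END-CC of treated against CONTROL animals, and edgeR called 1 for the sides in N6W. Without a filter the counts were 1 for the sides in N6W, and 10 for release and 6 for the sides in CONTROL. Without the replicate block that pairs the biopsies of an animal they were 10, 3 and 4 for release in N22W, N6W and CONTROL, 1 and 3 for the sides in N6W and CONTROL, 1 at END and 2 at END-CC against PRE, and 0 members for PRE to END. With only the libraries compared they were 12, 0 and 34 for release and 5, 0 and 25 for the sides in N22W, N6W and CONTROL, and 0 at END and 0 at END-CC against PRE. With a release threshold of 1 there were 32 members, and 9, 4 and 8 genes were called for release in N22W, N6W and CONTROL, 0 and 3 for the sides in N6W and CONTROL, 6 at END and 6 at END-CC against PRE, and 0 for PRE to END. With END minus END-CC below 0 there were 37 members, and the counts in the same order were 12, 4 and 5, then 0 and 2, then 4 and 7, then 0. The cause of these shifts was not tested, apart from the shorter lists under stricter thresholds. With each animal left out, release ran between 1 and 29 in N22W, 1 and 10 in N6W and 3 and 23 in CONTROL. The sides ran between 0 and 3 in N6W and 0 and 15 in CONTROL, END against PRE between 3 and 13, END-CC against PRE between 6 and 14, and PRE to END between 0 and 1. The number of members was 69 without animal 2913 and 121 without animal 2903, with 61 and 83 shared with the 96. TMM scaling gave 103 members, of which 93 are shared. With 3 animals an arm, small differences can be missed, and the smallest difference that could be detected was not determined. Of the members, 53 lie within 0.1 of a threshold.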
